A study of Mus musculus with 24 samples.

Results

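Naive CD4 T cells of wild-type mice were compared after and without stimulation through the T cell receptor (TCR). The comparison took in all 4 arrays of WT stimulated cells and all 4 arrays of WT unstimulated cells, 8 of the 24 arrays of a study of Trim28 in T cells. Stimulated cells had been held on plates coated with antibodies to CD3 and CD28 for 13 h. Unstimulated cells received no such stimulus, and the labels do not say whether they were cultured for the same time or taken fresh. Both groups came from female C57BL/6 mice with intact Trim28, aged 6 or 7 weeks, and were sorted as naive CD4+ cells without CD25. In the stimulated group replicates 1 and 4 were from mice aged 7 weeks and the other two from mice aged 6 weeks, and in the unstimulated group only replicate 4 was aged 7 weeks. A second pair of groups held stimulated and unstimulated naive cells of T cell-specific Trim28 conditional knockout (CKO) mice. These mice had the same ages, and each group had 4 arrays. The CKO response is set against that of WT cells near the end. The Cre driver of the knockout is not given in the sources used here, nor is it said whether each array stands for 1 animal or for a pool. The p-values therefore measure the spread between arrays, which may be technical. That spread is pooled over all 24 arrays, in 6 groups. The remaining groups held regulatory T cells (Treg) of WT and CKO mice, 4 arrays each. CKO and Treg arrays thus also enter the choice of probes and the p-values of the WT comparison.

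A naive T cell is small and quiescent. When its receptor binds antigen and CD28 gives a second signal, calcium and kinase cascades activate the transcription factors NFAT, AP-1 and NF-kappaB, the cell secretes IL-2 and puts its high-affinity receptor on the surface, and over hours it enlarges and prepares to divide. Antibodies to CD3 and CD28 stand in for antigen and for the costimulatory ligand. The samples are bulk RNA of sorted cells, in which fewer cells of a type and less RNA per cell cannot be told apart.

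Signals are given below as log2 values relative to the array, so that 0 is the 75th percentile of all probes on that array and each unit is 2-fold. Fold changes are differences of these log2 values, stimulated minus unstimulated, with their standard errors (SE) from limma, a linear model fitted to all genes. A gene is called when its Benjamini-Hochberg adjusted p was under 0.05. A probe counted as measured on an array when the scanner software found it well above background.

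Most of what was measured differed after stimulation. Of 16489 genes 10210 were called, which is 61.9% of them, with 5242 higher (31.8%) and 4968 lower (30.1%) in stimulated cells. Both called and different by at least 2-fold were 6571 genes (39.9%), 3164 of them higher (19.2%) and 3407 lower (20.7%). A difference of at least 16-fold was reached by 116 genes that rose and 291 that fell. All 4 stimulated arrays lay above all 4 unstimulated arrays for 4843 genes (29.4%) and below them for 4247 (25.8%), 55.1% in all. Counts of list members given below are to be read beside these shares of all genes. How the calls divided changed with the scaling. Rises made up 51.3% of the calls, but 40.2% when the 75th percentile was taken over probes above background on all 24 arrays and 37.9% with the 5000 brightest of those probes as the scale. Under these scalings the median over all genes shifted by -0.25 and -0.31, so small changes read as relative to the array as a whole.

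**Figure D1:**
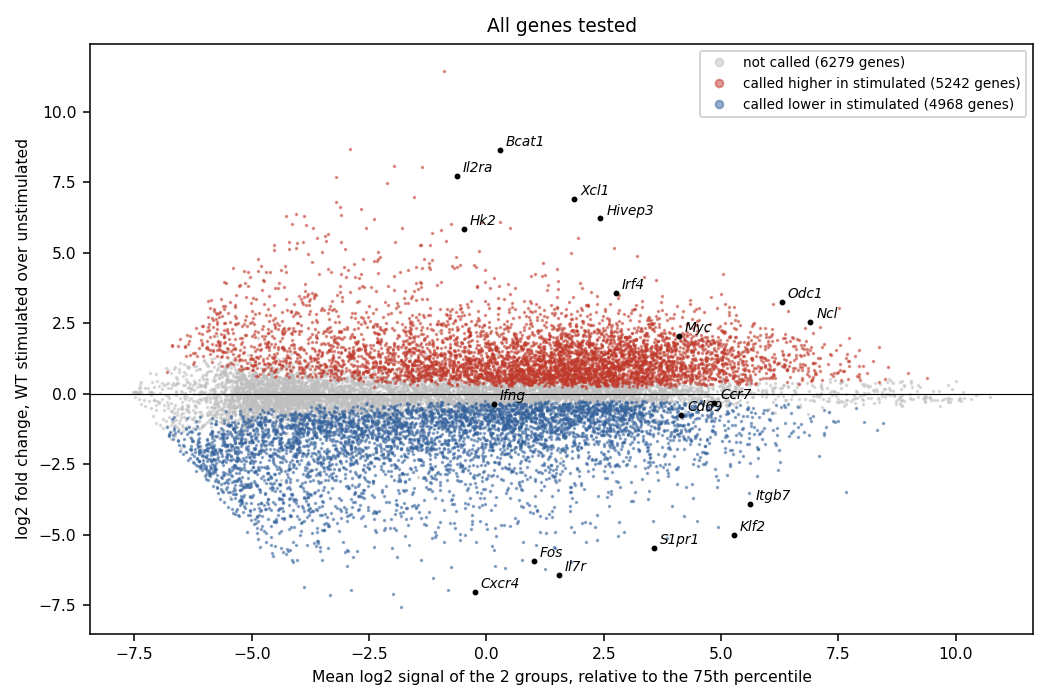
Each point is 1 of 16489 genes, placed by the mean log2 signal of the 2 groups (x axis, relative to the array's 75th percentile) and by the log2 fold change of WT stimulated over WT unstimulated cells (y axis). Red points were called higher, blue points lower, grey points were not called, and the named genes are in black: Bcat1 and Il2ra lie near the top, Cxcr4 and Il7r near the bottom, and Ifng and Ccr7 in the uncalled band.

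Arrays of a group resembled each other more than those of the other group. Pearson correlations across genes were 0.978 to 0.990 among stimulated arrays, 0.963 to 0.988 among unstimulated arrays and 0.882 to 0.904 between the groups. The 75th percentile of the processed signal, before scaling, was 160.2 to 308 on stimulated and 170.5 to 302 on unstimulated arrays. Of the probes, 51.9% to 57.3% against 54.8% to 58.5% were well above background. Arrays lay on 6 slides. One slide held replicate 1 of both groups and another replicate 3 of both. Within these slides 98.2% and 99.9% of called genes differed in the direction of their call, which rests in part on the same arrays.

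Both markers of activation rose far beyond the spread of the arrays. Il2ra, the alpha chain (CD25) that gives the IL-2 receptor its high affinity, had log2 signals of 3.10, 3.45, 3.32 and 3.08 on the stimulated arrays, against -4.22, -4.42, -4.55 and -4.74 on the unstimulated arrays. The groups stood 211-fold apart (7.72 ± 0.16, SE, adjusted p = 1.80e-18), and 3 of the 4 unstimulated arrays read the probe above background. Because the cells had been sorted as CD25-, a low starting level was part of the design. The log2 fold changes of its 4 measured probes ranged from 5.96 to 7.76. Tnfrsf9, the costimulatory receptor 4-1BB, had 3.60, 3.52, 2.97 and 3.69 in stimulated cells, against -2.80, -1.71, -3.10 and -2.16 in unstimulated cells, a difference of 5.89 ± 0.26. The labels of the groups and these markers therefore point the same way on all 8 arrays.

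T cell identity genes were measured in both groups, but they did not stay level. Of 8 T cell markers 5 fell and 1 rose, with a median of -0.69, although their summed signal, given below, was higher. Cd3e, a chain of the receptor complex, had 0.82, 1.77, 1.87 and 1.65 in stimulated and 1.51, 1.81, 2.05 and 1.01 in unstimulated cells, and these values overlapped (-0.07 ± 0.24, adjusted p = 0.823). A second Cd3e probe gave -0.88. Cd4, the coreceptor used in the sort, fell by 0.82 on the log2 scale (SE 0.15). Cd5, a receptor that tempers TCR signals, rose (1.33 ± 0.13), and Trat1, an adaptor of the receptor complex, fell (-3.33 ± 0.16).

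Markers of other cells were lower in the stimulated samples as a rule. All 14 of 14 measured B cell markers fell, as did 11 of 13 myeloid and dendritic markers, 8 of 9 CD8 and NK markers and 4 of 5 erythroid and platelet markers. No member of these lists rose. Summed on the linear scale, in multiples of the array's 75th percentile, B cell markers came to 1.81 to 6.60 in stimulated and 19.3 to 67.3 in unstimulated cells. Myeloid and dendritic markers came to 10.2 to 14.9 against 30.6 to 85.4. For CD8 and NK markers the sums were 5.89 to 9.29 in stimulated and 17.9 to 29.3 in unstimulated cells, and T cell markers had 596 to 623 against 427 to 523. Erythroid and platelet markers came to 0.107 to 0.241 against 0.408 to 18.6. The ranges of the groups do not touch in any of these lists. Unstimulated replicate 2 had the highest B, myeloid and erythroid sums. Without it 10060 genes were called, and 14, 10, 8 and 3 markers of the B, myeloid, CD8 and NK, and erythroid lists fell.

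Among single markers, Cd79b, the signalling chain of the B cell receptor, had -2.66, -1.29, -3.30 and -2.04 in stimulated cells, against 1.59, 3.65, 2.44 and 3.29 in unstimulated cells. Lyz2, lysozyme of macrophages and granulocytes, had -0.75, 1.66, -0.05 and -1.87 against 3.75, 5.52, 4.56 and 3.46. Both were thus still measured after stimulation. Gzma, Klra7, Klrb1c, Ncr1 and Cd8a of the CD8 and NK list, Cr2 and Ebf1 of the B cell list and Itgax and Itgam of the myeloid list were not well above background on any stimulated array. Several genes of the falling groups described below are also used by these other cells, and the part of the other cells in those results was not tested.

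**Figure D2:**
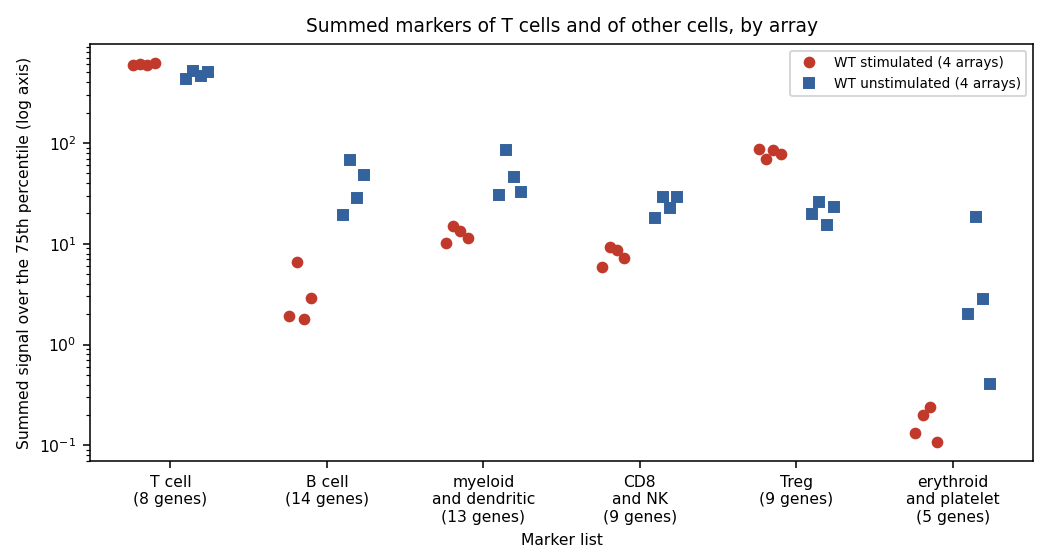
Each point is 1 array, with the summed linear signal of a marker list in multiples of the array's 75th percentile on a log axis, for WT stimulated cells (red circles) and WT unstimulated cells (blue squares). Markers of B, myeloid, CD8 and NK, and erythroid cells were lower on all 4 stimulated arrays than on any unstimulated array, with unstimulated replicate 2 the highest for B, myeloid and erythroid markers, while T cell and Treg sums were higher on every stimulated array.

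Receptors and costimulators of activated T cells mostly rose. Of 25 measured members 16 rose and 4 fell, against 31.8% and 30.1% of all genes, and the median log2 fold change was 1.14, against -0.02 over all genes. Pdcd1, the inhibitory receptor PD-1, had 5.43, 5.22, 5.39 and 5.22 in stimulated cells, against -0.08, 0.65, -0.15 and 0.11 in unstimulated cells, a rise of 36.2-fold (5.18 ± 0.16). Lag3, another inhibitory receptor that binds MHC class II, rose 22.4-fold (4.49 ± 0.33). The costimulatory receptor OX40, encoded by Tnfrsf4, rose by 4.24 ± 0.18, and Cd200 and Slamf1 by 3.62 ± 0.18 and 3.06 ± 0.14. Cd274, the ligand PD-L1, gained 1.94 ± 0.13, and its relative Pdcd1lg2 (PD-L2), outside the list, gained 5.80 ± 0.24. Cd44, an adhesion receptor that marks antigen experience, rose more modestly (1.07 ± 0.24).

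Not every activation marker was up at 13 h. Cd69, a lectin that appears within the first hours of stimulation, had 4.00, 3.94, 3.51 and 3.63 in stimulated cells and 4.75, 4.38, 4.65 and 4.34 in unstimulated cells. Every stimulated array lay below every unstimulated one, so Cd69 mRNA fell (-0.76 ± 0.15, adjusted p = 1.70e-04), and its level in unstimulated cells was already high. Icos and Ctla4, which control costimulation, differed by 0.08 and 0.09 and were not called, nor was Cd40lg at -0.61. Cd86, a B7 ligand of antigen-presenting cells, was above background on 1 stimulated array and on all 4 unstimulated ones, and Cd38 and Havcr2 were above background on no stimulated array.

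Of 26 measured cytokines and other secreted mediators 13 rose and 6 fell, with a median of 0.64. Il2, the growth factor of activated T cells, had -0.19, 0.08, 0.05 and -0.14 in stimulated cells, against -4.29, -4.44, -5.02 and -5.22 in unstimulated cells. That is 25.8-fold higher (4.69 ± 0.32, adjusted p = 6.26e-11), with 3 of the 4 unstimulated arrays above background. A second Il2 probe gave 3.50. Xcl1, the chemokine lymphotactin, was 119.8-fold higher (6.91 ± 0.47), with 5.08, 4.90, 5.79 and 5.53 against -2.54, -1.34, -1.64 and -0.80. Csf2, encoding GM-CSF, had -1.67, -2.22, -2.02 and -2.30 against -6.88, -5.05, -5.57 and -5.26, where 1 of the 4 unstimulated arrays was above background (3.64 ± 0.41). Il3, a growth factor of myeloid cells, was above background on all stimulated and on no unstimulated array, which puts it at least 3.26-fold higher. This is a lower bound, for which a dim array was not allowed to count for less than its own dimmest probe above background.

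Among other ligands, the chemokines Ccl4 and Ccl3 rose by 3.92 ± 0.48 and 2.21 ± 0.43. Members of the TNF family rose as well: Lta, lymphotoxin alpha, by 2.18 ± 0.16, Tnf by 1.82 ± 0.27, Tnfsf14 (LIGHT) by 3.30 ± 0.22 and Tnfsf11 (RANKL) by 2.15 ± 0.53. Mif, a cytokine made by many cell types, gained 3.05 ± 0.19. The effector cytokine Ifng had 0.00, 0.84, -0.43 and -0.51 in stimulated and -0.64, 0.58, 0.44 and 1.03 in unstimulated cells, and these ranges overlapped (-0.38 ± 0.40, adjusted p = 0.434). Il13 (0.20) and Gzmb (0.60) were not called either. Ccl5, a chemokine of memory and cytotoxic cells, fell (-2.46 ± 0.48), as did the chemoattractant precursor Il16 (-1.62 ± 0.15) and Ltb (-1.0 ± 0.24). Il22, a cytokine of helper T cells, was above background on no stimulated and on 3 unstimulated arrays, at least 1.36-fold lower.

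For NFAT, the calcium-driven factor, the letters TGGAAA were searched, called the NFAT core below, and for AP-1 the letters TGANTCA. Other forms of these sites were not searched, so a window without a match may still hold one. Promoter windows of 300 bases from RefSeq, 250 before the gene's start to 50 after it (GRCm38.p6), were available for 10288 of the 16489 genes, which had 13040 windows. Searched on both strands, the NFAT core was in 17.0% of these windows (21.4% of all 32851 windows), in 17.2% of those of genes that rose at least 2-fold and in 19.8% of those of genes that fell as much. For AP-1 the shares were 5.3% (7.8% of all windows), 4.2% and 7.2%. In the windows of the secreted mediators the NFAT core was found in 10 of 24 (41.7%) and AP-1 in 3, while 10 of 31 windows (32.3%) of the ribosome biogenesis genes described below also hold the NFAT core. The windows of Il2 and Csf2, both cytokine genes that rose, are shown because each holds 1 NFAT core, in capitals, and the Il2ra window because it holds neither motif, although Il2ra had the largest rise of the activation list. A match describes letters only. The Il2 core starts 47 bases before the gene's start and reads TTTCCA on the strand shown, and that of Csf2 starts 201 bases before. The windows lie at chr3:37125905-37126204 (minus strand), chr11:54249850-54250149 (minus strand) and chr2:11642542-11642841 (plus strand) and are given 5′ to 3′ along the gene.
Il2: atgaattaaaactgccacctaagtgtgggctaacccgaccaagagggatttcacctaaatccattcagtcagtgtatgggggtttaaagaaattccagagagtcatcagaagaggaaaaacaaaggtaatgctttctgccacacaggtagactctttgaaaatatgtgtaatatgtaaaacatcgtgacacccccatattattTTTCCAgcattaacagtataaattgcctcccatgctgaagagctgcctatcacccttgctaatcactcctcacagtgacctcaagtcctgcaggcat
Csf2: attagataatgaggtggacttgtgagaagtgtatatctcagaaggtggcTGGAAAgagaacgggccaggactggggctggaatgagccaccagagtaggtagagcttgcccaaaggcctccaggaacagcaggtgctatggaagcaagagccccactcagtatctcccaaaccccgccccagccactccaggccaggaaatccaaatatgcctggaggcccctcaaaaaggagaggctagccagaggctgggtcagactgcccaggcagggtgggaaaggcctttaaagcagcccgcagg
Il2ra: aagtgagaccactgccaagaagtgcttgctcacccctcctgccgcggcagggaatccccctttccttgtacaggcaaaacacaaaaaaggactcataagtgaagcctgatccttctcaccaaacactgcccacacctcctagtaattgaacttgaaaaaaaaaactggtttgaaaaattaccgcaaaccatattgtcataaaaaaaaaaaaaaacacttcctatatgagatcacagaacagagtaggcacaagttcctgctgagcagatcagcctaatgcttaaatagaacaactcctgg

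**Figure D3:**
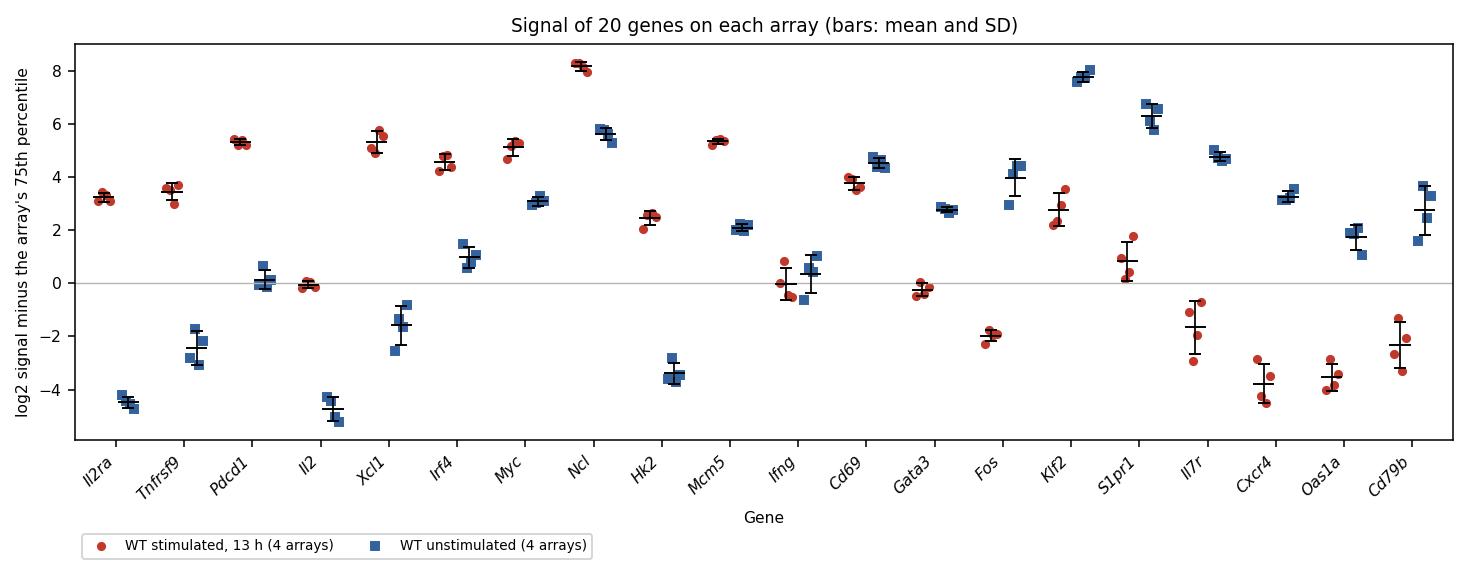
Log2 signal of 20 genes (y axis, relative to the array's 75th percentile) on each of the 4 WT stimulated arrays (red circles) and the 4 WT unstimulated arrays (blue squares), with the mean and SD of each group in black. The groups are clear of each other for every gene but Ifng, with Il2ra, Tnfrsf9, Pdcd1, Il2, Xcl1, Irf4, Myc, Ncl, Hk2 and Mcm5 higher and Cd69, Gata3, Fos, Klf2, S1pr1, Il7r, Cxcr4, Oas1a and Cd79b lower after stimulation.

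Early response genes, which encode transcription factors made in the first hour after a stimulus, did not move as a block. Of 23 measured members 8 rose and 11 fell, against 31.8% and 30.1% of all genes. The median was -0.98, but -0.21 and -0.48 within the slides that held both groups. The AP-1 genes Fos and Jun were among the largest falls of the whole comparison. Fos had -2.27, -1.74, -1.95 and -1.91 in stimulated cells, against 2.94, 4.10, 4.42 and 4.43 in unstimulated cells (-5.94 ± 0.30, adjusted p = 8.48e-13). Jun had -2.85, -2.33, -3.22 and -2.43 against 3.13, 3.50, 3.39 and 3.92 (-6.20 ± 0.24). Fosb (-3.95 ± 0.51), Junb (-3.48 ± 0.22) and Jund (-0.98 ± 0.23) also fell, while Fosl1, the AP-1 member Fra-1, was above background only in stimulated cells and at least 60.7-fold higher there.

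The calcium-responsive factors were split too. Nr4a1, the nuclear receptor Nur77, had 5.94, 6.15, 6.02 and 6.39 in stimulated cells, below its 7.42, 7.26, 7.36 and 8.39 in unstimulated cells (-1.48 ± 0.22), whereas its relative Nr4a2 rose (1.26 ± 0.37). Egr2 and Egr3, zinc finger factors that restrain activation, rose by 2.32 ± 0.13 and 1.67 ± 0.24, and Egr1 was not called (0.26). Irf4, whose level is known to follow the strength of the TCR signal, had 4.23, 4.80, 4.82 and 4.37 against 1.5, 0.56, 0.80 and 1.05, a rise of 12-fold (3.58 ± 0.22). Its partner Batf fell slightly (-0.46 ± 0.19, adjusted p = 0.0429) with overlapping groups, a call that several alternatives ended. Bhlhe40, a repressor of IL-10, and Irf8 rose by 2.12 ± 0.25 and 1.99 ± 0.30. The level of Fos and Jun in the unstimulated cells was therefore the high one, and how those cells were handled between sort and lysis is not given in the sources used here.

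Myc, the factor that drives ribosome and metabolic genes in activated T cells, had 4.66, 5.18, 5.35 and 5.28 in stimulated cells, against 2.93, 3.01, 3.30 and 3.10 in unstimulated cells (2.03 ± 0.15, adjusted p = 2.16e-10). Its antagonists Mxd4, Mxd1 and Mxi1, which compete for the partner Max, fell by 3.22, 3.07 and 1.24 on the log2 scale, as did Mnt (-0.77 ± 0.15). Max itself rose by 0.31 ± 0.13, a value that was -0.07 after quantile normalization and -0.01 after normexp background correction. In the MYC and MAX network as listed, 3 of 10 rose and 6 fell, against 31.8% and 30.1% of all genes. The number that rose was 1 after quantile normalization, after normexp correction, under both scalings on shared probes and in the authors' values, with 4 to 7 lower.

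Of 35 ribosome biogenesis genes 34 rose and none fell, against 31.8% and 30.1% of all genes, with a median of 2.20. In 34 every stimulated array lay above every unstimulated one, against 29.4% of all genes. Tcof1 (0.36) was the member not called. Ncl, nucleolin of the nucleolus, had 8.29, 8.31, 8.13 and 7.96 in stimulated cells, against 5.82, 5.77, 5.61 and 5.30 in unstimulated cells (2.55 ± 0.18). Nop16, Nhp2, a protein of the pseudouridylation complex, and Nop2, an rRNA methyltransferase, rose by 3.12 ± 0.23, 3.05 ± 0.21 and 2.90 ± 0.20. Subunits of RNA polymerase I, which transcribes rRNA, were among them, such as Polr1b (2.65 ± 0.16). Translation factors and tRNA synthetases followed with 34 of 35 higher, none lower and a median of 1.58. Eif5a, a factor that relieves ribosomes stalled during elongation, had 6.25, 7.17, 6.92 and 6.47 against 4.01, 4.21, 4.02 and 3.41 (2.79 ± 0.21), and Rars, the arginyl-tRNA synthetase, rose by 2.39 ± 0.19.

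Cytosolic ribosomal protein genes, in contrast, hardly moved. Rpl4 (0.51 ± 0.21, adjusted p = 0.0432) was the 1 called of 30, and the median was -0.02, inside the -0.73 to 0.51 that the members spanned. With arrays scaled on the 5000 brightest probes 9 of them were lower and none higher, and 6 rose when a gene's probes were averaged, so no direction is drawn. The list's summed signal was 13700 to 17460 in stimulated and 12060 to 19500 in unstimulated cells.

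The E-box CACGTG is the letter sequence that MYC with MAX recognises. It was in 9.7% of the 13040 windows (7.2% of all windows), in 13.1% of those of genes that rose at least 2-fold, in 8.0% of those of genes that fell as much and in 7 of 31 windows (22.6%) of the ribosome biogenesis genes. The windows of Nop2 and of Mybbp1a, which encodes a nucleolar MYB-binding protein, are shown because these rose most (2.90 and 2.48) among the 7 genes whose window holds it. The capitals mark the E-box, which starts 60 bases before the start of Nop2 and 40 bases after that of Mybbp1a. The windows lie at chr6:125131633-125131932 and chr11:72441077-72441376, both on the plus strand, and a match describes letters only.
Nop2: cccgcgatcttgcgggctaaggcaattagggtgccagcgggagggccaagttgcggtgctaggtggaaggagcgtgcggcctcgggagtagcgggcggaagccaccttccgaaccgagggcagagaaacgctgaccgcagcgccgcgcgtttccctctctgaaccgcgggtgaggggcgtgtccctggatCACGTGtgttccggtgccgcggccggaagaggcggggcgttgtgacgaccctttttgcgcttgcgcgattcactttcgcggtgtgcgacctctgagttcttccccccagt
Mybbp1a: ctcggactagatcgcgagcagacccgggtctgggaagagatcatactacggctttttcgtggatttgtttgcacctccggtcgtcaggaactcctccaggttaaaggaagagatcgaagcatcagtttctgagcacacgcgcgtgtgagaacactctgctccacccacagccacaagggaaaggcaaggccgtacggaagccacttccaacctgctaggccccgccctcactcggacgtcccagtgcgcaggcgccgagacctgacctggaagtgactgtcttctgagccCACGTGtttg

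**Figure D4:**
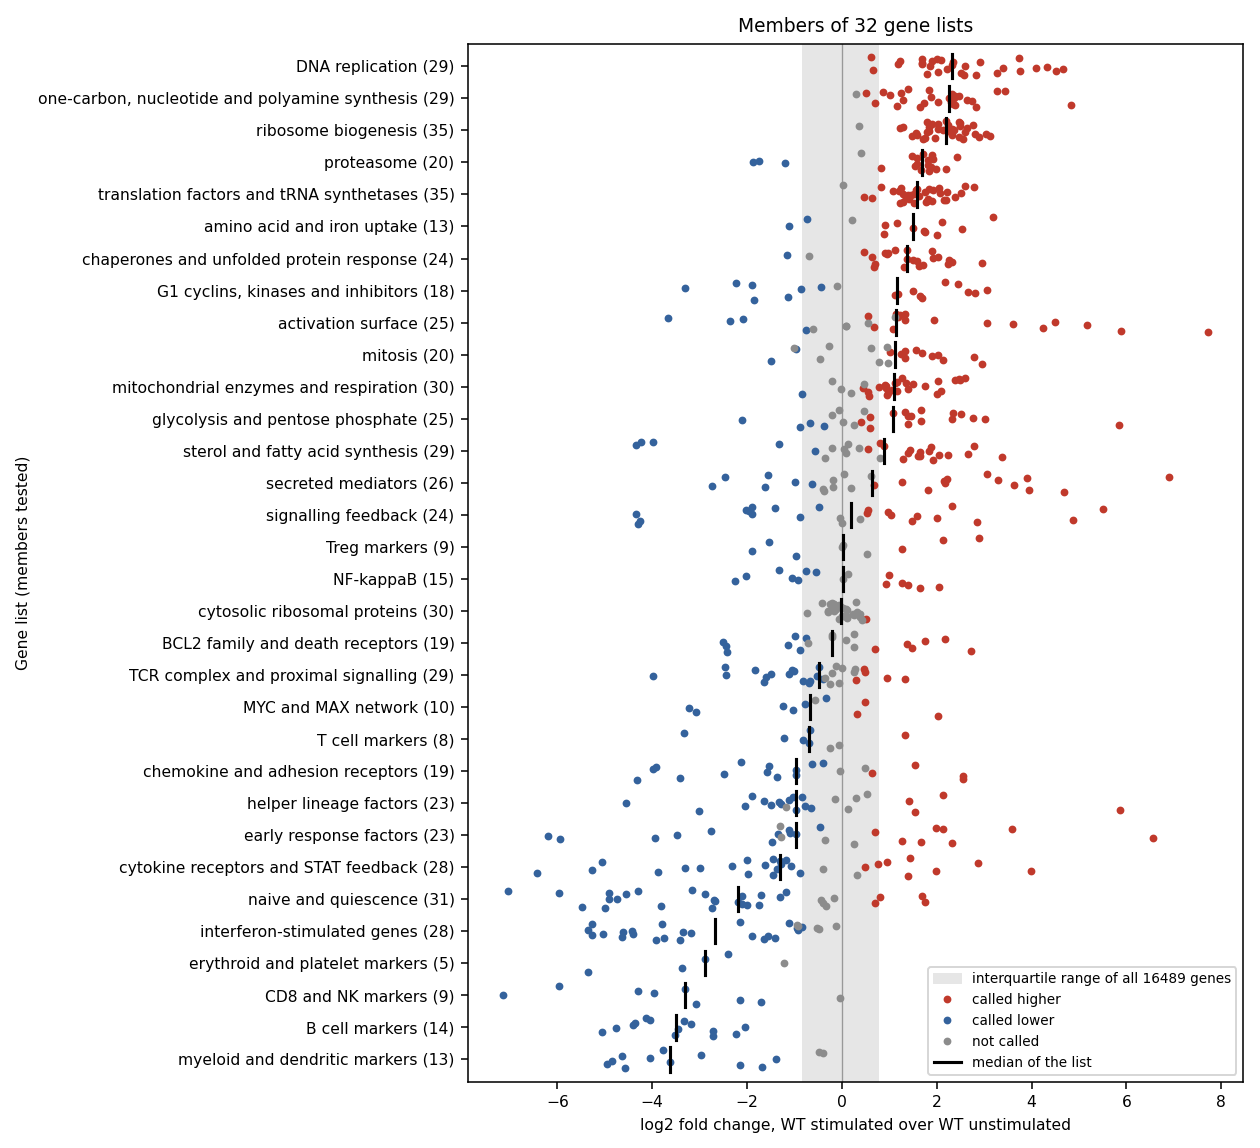
Each point is a tested member of a gene list, at its log2 fold change of WT stimulated over WT unstimulated cells (x axis), coloured red where called higher, blue where called lower and grey where not called. Black bars are list medians, the grey band is the interquartile range of all 16489 genes, and members dim in 1 group stand at their fitted value. DNA replication (2.33), one-carbon and nucleotide synthesis (2.26) and ribosome biogenesis (2.20) have the highest medians, myeloid (-3.62) and B cell markers (-3.49) the lowest, and these 2 become -2.98 and -3.25 with dim members at their bounds.

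In the list of amino acid and iron uptake 10 of 13 rose and 2 fell. Slc7a5, the carrier of large neutral amino acids, had 1.54, 1.62, 1.69 and 1.66 in stimulated cells, against -0.11, -1.02, -0.30 and -0.11 in unstimulated cells (2.01 ± 0.23). Tfrc, the transferrin receptor, rose by 2.10 ± 0.30 and Slc29a1, a nucleoside transporter, by 3.18 ± 0.19. Slc38a2, a glutamine carrier, went the other way (-1.12 ± 0.24), as did the phosphate carrier Slc20a1 (-0.73 ± 0.19).

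Among glycolysis and pentose phosphate genes 16 of 25 rose and 4 fell, with a median of 1.08. Hk2, the inducible hexokinase, had 2.06, 2.57, 2.64 and 2.51 in stimulated cells, against -3.59, -2.81, -3.70 and -3.47 in unstimulated cells, and was 57.1-fold higher (5.84 ± 0.20, adjusted p = 5.0e-15). The constitutive hexokinase gene Hk1 fell a little (-0.38 ± 0.16). Tpi1 (3.02 ± 0.19), Pgam1 (2.77 ± 0.16) and the lactate carrier Slc16a1 (2.51 ± 0.16) rose. Of the glucose transporters Slc2a1 (GLUT1) rose by 0.60 ± 0.18 with overlapping groups, where unstimulated replicate 4 reached into the stimulated range, while Slc2a3 (GLUT3) fell (-0.88 ± 0.11). Aldoc and Pfkm, isoenzymes typical of brain and muscle, fell by 2.11 and 0.68 on the log2 scale.

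Among genes of one-carbon, nucleotide and polyamine synthesis 28 of 29 rose, none fell and the median was 2.26. Shmt1, the cytosolic serine hydroxymethyltransferase, had 1.44, 1.92, 2.05 and 1.69 in stimulated cells, against -2.87, -3.05, -3.02 and -3.31 in unstimulated cells, 28.5-fold higher (4.83 ± 0.20). Its mitochondrial relative Shmt2 rose by 2.38 ± 0.14, and Psat1 of serine synthesis by 2.83 ± 0.11. Odc1 and Srm, which make the polyamines putrescine and spermidine, rose 9.61-fold (3.26 ± 0.18) and 10.9-fold (3.45 ± 0.17). Cad and Umps, enzymes of pyrimidine synthesis, rose by 2.75 ± 0.17 and 2.63 ± 0.15.

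Of 29 sterol and fatty acid genes 17 rose and 5 fell (median 0.89). The enzymes Idi1 (3.38 ± 0.19), Cyp51 (2.66 ± 0.26) and Sqle (2.05 ± 0.28) of cholesterol synthesis and Acaca (2.79 ± 0.25) of fatty acid synthesis rose. The cholesterol exporters Abca1 and Abcg1 fell: Abcg1 had -0.16, -0.68, -0.20 and 0.18 in stimulated cells, against 3.53, 3.89, 3.76 and 3.89 in unstimulated cells (-3.98 ± 0.18). Mitochondrial genes rose in 25 of 30 cases, with a median of 1.09. The import proteins Tomm40 (2.59 ± 0.27) and Timm8a1 (2.48 ± 0.19) led, and Idh2 was the 1 that fell (-0.84 ± 0.27).

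Protein folding and turnover genes rose as well. Of the chaperone and unfolded protein response genes 22 of 24 rose, with a median of 1.38. Hspd1, the mitochondrial chaperonin HSP60, had 7.85, 7.98, 7.93 and 7.81 in stimulated cells, against 4.58, 4.91, 4.83 and 5.46 in unstimulated cells (2.95 ± 0.21), and its partner Hspe1 rose by 2.32 ± 0.21. Ddit3, the stress factor CHOP, fell (-1.16 ± 0.30). In the proteasome list 16 of 20 rose, with Psmd1 at 2.44 ± 0.15 and Psma5 at 2.19 ± 0.21. The 3 that fell were Psmb9, Psmb10 and Psmb8, the catalytic subunits of the interferon-inducible immunoproteasome, by 1.86, 1.75 and 1.2 on the log2 scale. Psmb8 had 4.70, 5.03, 4.93 and 4.79 in stimulated cells, against 5.97, 6.30, 6.07 and 5.92 in unstimulated cells. The constitutive subunit genes Psmb6, Psmb2 and Psmb5 rose by 1.58 ± 0.21, 1.88 ± 0.30 and 1.82 ± 0.19.

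All 29 of 29 DNA replication genes rose, with a median of 2.33. Mcm5, a subunit of the replicative helicase, had 5.22, 5.40, 5.44 and 5.36 in stimulated cells, against 1.99, 2.22, 1.97 and 2.19 in unstimulated cells (3.26 ± 0.13, adjusted p = 1.77e-14). Mcm10 (4.51 ± 0.39), Gins1 (4.10 ± 0.15) and Cdc6 (3.75 ± 0.44), which assemble and start the helicase, rose by more, and Orc1 of the origin complex was above background only in stimulated cells, at least 15.4-fold higher.

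Among regulators of the G1 phase 10 of 18 rose and 7 fell. The kinases Cdk4 (2.80 ± 0.26) and Cdk6 (2.67 ± 0.12) and the D cyclin Ccnd2 (1.68 ± 0.14) rose, while its relative Ccnd3 fell (-1.13 ± 0.13). Cdkn1b, the inhibitor p27 that holds resting T cells in G1, had 0.27, -0.17, 0.43 and 0.59 in stimulated cells, against 3.44, 3.51, 3.52 and 3.28 in unstimulated cells (-3.16 ± 0.15). Cdkn2d (p19) fell likewise (-3.32 ± 0.18), but Cdkn1a (p21) rose (3.07 ± 0.28). Inhibitors therefore moved both ways.

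Genes of mitosis were dim and mixed. Their summed signal was 12.4 to 17.3 in stimulated and 6.55 to 14.0 in unstimulated cells, ranges that overlap. Of 20 measured 11 rose and 2 fell, and 11 became 6 when only probes above background on all 8 arrays were kept. Bub1b, of the spindle checkpoint, rose (2.03 ± 0.34) and was above background on 3 unstimulated arrays. Cdk1, the mitotic kinase, was so on 2 of them and Aurkb on 1. Mki67, the proliferation marker Ki-67, had -0.84, -0.09, -0.81 and -0.63 in stimulated cells, against -0.04, 1.25, -0.09 and 0.35 in unstimulated cells, and fell with overlapping groups (-0.96 ± 0.38, adjusted p = 0.0315), a call that several alternatives ended, quantile normalization (adjusted p = 0.056) and leaving out unstimulated replicate 2 (adjusted p = 0.134) among them. Ccnb2, cyclin B2, fell too (-1.5 ± 0.34).

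Genes of the naive and quiescent state fell. Of 31 measured 23 fell and 4 rose, against 30.1% and 31.8% of all genes, with a median of -2.20. Klf2, the factor that maintains quiescence and homing receptors, had 2.21, 2.36, 2.96 and 3.55 in stimulated cells, against 7.58, 7.77, 7.73 and 8.03 in unstimulated cells (-5.01 ± 0.27, adjusted p = 1.49e-12), although a second Klf2 probe gave only -0.38. Its target S1pr1, which lets cells leave lymph nodes, had 0.94, 0.16, 0.41 and 1.80 against 6.75, 6.12, 5.77 and 6.57 and fell as well (-5.48 ± 0.29). Ccr7, which guides naive cells to the T cell zone, had 4.05, 4.69, 4.82 and 5.21 in stimulated and 5.13, 5.09, 4.82 and 5.06 in unstimulated cells and was not called (-0.33 ± 0.23, adjusted p = 0.217), though it was lower by a called -0.70 after quantile normalization (adjusted p = 0.0145).

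Txnip, a member of the same list that limits glucose uptake, was 26.7-fold lower (-4.74 ± 0.27), with -0.87, 0.11, 0.15 and 0.35 in stimulated cells, against 4.76, 4.89, 5.01 and 4.05 in unstimulated cells. Pik3ip1, an inhibitor of PI3 kinase, fell by 4.92 on the log2 scale, Foxo1 by 2.11, and the antiproliferative genes Tob1, Btg2 and Btg1 by 2.71, 2.68 and 2.20. The lineage factors Tcf7 and Lef1 fell less (-1.75 ± 0.24 and -1.99 ± 0.19). Bach2, a repressor that keeps T cells from effector fates, Id3 and Slfn2 rose instead (1.75 ± 0.11, 1.70 ± 0.34 and 0.80 ± 0.17), and so did Foxp1 (0.69 ± 0.12).

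Trafficking receptors were lower in the main: 13 of 19 chemokine and adhesion receptors fell and 4 rose. Cxcr4, the receptor of CXCL12 and listed with the naive genes, showed the largest fall of any gene measured in both groups and named here. It had -2.85, -4.24, -4.51 and -3.50 in stimulated cells, against 3.15, 3.15, 3.22 and 3.55 in unstimulated cells, a 132-fold difference (-7.04 ± 0.25). Itga4 and Itgb7, which pair as the gut-homing integrin, fell by 3.98 and 3.92 on the log2 scale. Ccr4, a receptor of helper cells entering tissue, rose (2.55 ± 0.32), and Ccr8 was above background on 3 stimulated arrays and on no unstimulated array. Ccr2 was above background on no stimulated array and on all unstimulated ones, at least 5.19-fold lower, and B, myeloid and NK cells, whose markers fell as given above, use several of these receptors.

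Cytokine receptors and their feedback genes fell more often than they rose, 18 against 8 of 28, with a median of -1.30. Il7r, the receptor for the survival cytokine IL-7, had -1.09, -2.92, -1.96 and -0.70 in stimulated cells, against 5.01, 4.74, 4.61 and 4.68 in unstimulated cells, 85.9-fold lower (-6.42 ± 0.30, adjusted p = 2.20e-13). The 3 measured Il7r probes ranged from -6.42 to -4.50. Il18r1 (-5.26 ± 0.47), Il10ra (-3.89 ± 0.47) and both chains of the interferon gamma receptor, Ifngr1 and Ifngr2 (-3.30 ± 0.19 and -2.98 ± 0.21), fell. The feedback inhibitor Socs3 had -0.44, 0.31, 0.26 and 0.93 against 4.65, 5.27, 5.27 and 6.11 (-5.06 ± 0.29), while Socs2 rose (2.86 ± 0.30; its other probe gave 0.59). On the rising side stood Il12rb1, a receptor chain for IL-12 and IL-23, at 4.00 ± 0.20, Il15ra at 1.98 ± 0.34 and the IL-2 receptor beta chain Il2rb at 1.39 ± 0.26. The shared gamma chain Il2rg was not called (0.31).

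Components of the receptor complex and its first signalling steps fell in 16 of 29 cases and rose in 5. With arrays scaled on the 5000 brightest probes the counts were 21 and 2. Themis, an adaptor of the TCR, had -3.48, -3.86, -3.31 and -3.72 in stimulated cells, against 0.28, 0.64, 0.40 and 0.28 in unstimulated cells (-3.99 ± 0.17). Grap2 (-2.45 ± 0.12), Rasgrp1 (-1.83 ± 0.14) and Cd247 (-1.65 ± 0.16), the zeta chain, fell too. Cblb, a ubiquitin ligase that raises the activation threshold, fell (-2.47 ± 0.29), though a second probe gave -0.10. The kinase gene Zap70 and the adaptor gene Lcp2 (SLP-76) rose (1.32 ± 0.15 and 0.96 ± 0.12).

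Feedback regulators of signalling were divided, with 11 of 24 higher and 10 lower, against 31.8% and 30.1% of all genes. Their median of 0.19 turned to -0.06 and -0.11 under the scalings on shared probes and so has no settled sign. Spry1, an inhibitor of the ERK pathway, had 5.55, 5.90, 5.71 and 5.47 in stimulated cells, against 0.61, 1.25, 0.53 and 0.73 in unstimulated cells (4.88 ± 0.19). Rgs16, which shortens G protein signals, rose by 5.52 ± 0.32 and the ERK phosphatase gene Dusp4 by 2.84 ± 0.20. Tnfaip3, the NF-kappaB inhibitor A20, had 2.24, 2.20, 1.58 and 2.13 against 6.73, 6.17, 6.17 and 6.46 (-4.35 ± 0.17), and the phosphatase genes Dusp1 and Dusp10 fell by 4.30 and 4.26 on the log2 scale. In the NF-kappaB list 6 of 15 rose and 7 fell, against 31.8% and 30.1% of all genes. The subunit genes Nfkb2 (2.04 ± 0.13) and Nfkb1 (1.65 ± 0.13) were higher and the coactivator gene Bcl3 lower (-2.26 ± 0.23).

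Helper lineage factors fell in 14 of 23 cases and rose in 4. Gata3, the Th2 factor, had -0.49, 0.05, -0.40 and -0.15 in stimulated cells, against 2.86, 2.81, 2.65 and 2.77 in unstimulated cells (-3.02 ± 0.15). Tbx21 (T-bet), the Th1 factor, had 0.06, 1.98, 1.16 and 0.73 against -1.27, -0.24, -0.88 and 0.16, a rise with overlapping groups (1.54 ± 0.45, adjusted p = 0.00548). Ikzf3 rose by 2.13 ± 0.20 at its brightest probe, while its probes ranged from -0.40 to 2.13. Prdm1, encoding the repressor Blimp-1, was above background on no stimulated array and at least 12.2-fold lower.

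Of 9 markers of regulatory T cells 3 rose and 3 fell, shares near the 31.8% and 30.1% of all genes, while their sum was higher in stimulated cells, 69.6 to 86.7 against 15.2 to 25.7. Foxp3, their lineage factor, had -4.20, -3.90, -3.65 and -3.45 in stimulated cells, below -2.50, -2.61, -3.21 and -2.98 in unstimulated cells (-0.97 ± 0.20, adjusted p = 2.41e-04), though it was no longer called with a signal floor or after normexp background correction. Capg, an actin-capping protein, rose (2.90 ± 0.23). Trim28 itself, the corepressor that the wider study deleted, rose in these WT cells, with 3.35, 3.83, 3.72 and 3.56 in stimulated and 2.27, 2.42, 2.52 and 2.41 in unstimulated cells (1.21 ± 0.17, adjusted p = 2.60e-06).

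Interferon-stimulated genes, which cells make in response to type I interferon, fell. Of 28 measured 23 fell and none rose. The median was -2.67, or -2.02 with the member above background in 1 group only set at its bound, and -2.70 and -3.26 within the 2 slides that held both groups. Oas1a, an antiviral synthetase, had -4.03, -2.87, -3.82 and -3.41 in stimulated cells, against 1.91, 1.86, 2.09 and 1.05 in unstimulated cells (-5.26 ± 0.26). Ddx58, the RNA sensor RIG-I, fell by 5.35 on the log2 scale, Irf7 by 4.64, Usp18 by 4.61 and Isg15 by 3.42. Rtp4 had -2.60, -1.53, -1.86 and -1.45 against 3.30, 3.71, 4.25 and 2.40 (-5.28 ± 0.38). The receptor chains Ifnar1 and Ifnar2 were lower as well (-1.07 ± 0.15 and -1.62 ± 0.14), and so were the B cell and myeloid markers given above, whose part in this fall was not tested. Without unstimulated replicate 2, the array with the highest such markers, the same number of 23 was called lower, but the other unstimulated arrays still had summed B cell marker signals of at least 19.3, against at most 6.60 in stimulated cells.

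Of 19 survival and death receptor genes 6 rose and 7 fell, shares near the 31.8% and 30.1% of all genes. Bcl2l1, encoding the survival protein BCL-XL, had 1.86, 2.58, 2.33 and 2.30 in stimulated cells, against -0.37, -0.27, -0.49 and -0.66 in unstimulated cells (2.71 ± 0.18). Bcl2, its relative in resting T cells, had 2.26, 2.06, 2.29 and 2.28 against 4.95, 4.60, 4.30 and 4.76 (-2.43 ± 0.17). The proapoptotic genes Bbc3 (PUMA) and Bmf fell (-2.43 ± 0.19 and -2.50 ± 0.55), and Bax rose (1.47 ± 0.31).

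Outside the lists, the largest rise among genes measured in both groups was that of Bcat1, which encodes the cytosolic branched-chain amino acid transaminase. Bcat1 had 4.5, 4.62, 4.76 and 4.59 in stimulated cells, against -4.46, -3.72, -4.04 and -3.92 in unstimulated cells, 404-fold higher (8.66 ± 0.22, adjusted p = 3.25e-17), and its second probe gave 5.70. Hivep3, a zinc finger factor, had 5.70, 5.52, 5.53 and 5.40 against -0.83, -0.72, -0.73 and -0.45 (6.22 ± 0.13), and the RNA-editing enzyme gene Adarb1 rose by 6.11 ± 0.16. Slc9b2, a sodium-proton exchanger, and Dnph1, a nucleotide hydrolase, rose by 6.11 ± 0.23 and 6.02 ± 0.42. Ak7 encodes an adenylate kinase found in motile cilia and rose by 5.69 ± 0.19.

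Among the large falls outside the lists, Drc1, of the dynein regulatory complex, had -3.33, -2.90, -1.77 and -0.82 in stimulated cells, against 4.09, 3.77, 2.35 and 4.63 in unstimulated cells (-5.91 ± 0.47). Dnah8, an axonemal dynein heavy chain, fell at its brightest probe (-5.57 ± 0.28) and by 2.90 on the log2 scale at another. Armc3 (-6.97 ± 0.40; above background on 3 stimulated arrays), the semaphorin gene Sema4a (-6.23 ± 0.21), P2rx7, an ATP-gated channel (-6.16 ± 0.22), and Fcmr, an IgM receptor (-5.92 ± 0.51), also fell.

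Some genes were above background in 1 group only. Bdh2, a hydroxybutyrate dehydrogenase, had 5.0, 4.46, 5.64 and 4.18 in stimulated cells and was on no unstimulated array above background, at least 1135-fold higher. Spin4, a spindlin, and Ncs1, a neuronal calcium sensor, were at least 170.0-fold and at least 123-fold higher, and Ccl1, the ligand of CCR8, at least 109.8-fold. Adh4, an alcohol dehydrogenase, was at least 46.4-fold higher. In the other direction Lrrc75b was at least 57.7-fold lower, Gzma, granzyme A of cytotoxic cells, at least 45-fold, Ripor3 at least 41.0-fold, the AMP deaminase gene Ampd1 at least 39.8-fold, Cmpk2, an interferon-induced nucleotide kinase, at least 34.5-fold and C1qc, a complement chain made by macrophages, at least 27.7-fold. Gzma and C1qc move with the CD8, NK and myeloid markers.

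The WT response was then set against that of CKO cells, with the difference itself tested in the same model. Trim28, the deleted gene, had 1.04, 1.01, 1.20 and 0.48 in CKO stimulated cells and 0.53, 0.85, 0.96 and 1.23 in CKO unstimulated cells, below all 8 WT values given above. The difference in response was called for 569 of 16489 genes (3.45%). The difference was positive for 216 and negative for 353, and 2541 had an unadjusted p under 0.05. Ak7 showed the largest among the genes named. It rose by 5.69 ± 0.19 in WT cells, against 1.52 ± 0.19 in CKO cells, a difference of 4.18 ± 0.26 (adjusted p = 9.39e-09). Ccl4 rose by 3.92 ± 0.48 in WT, against 0.94 ± 0.48 in CKO cells (difference 2.98 ± 0.68, adjusted p = 0.0158). The difference for Tbx21 was 2.55 ± 0.64, with 1.54 ± 0.45 in WT and -1.01 ± 0.45 in CKO cells (adjusted p = 0.0277), and these are opposite signs. Foxp3, a dim gene not named for the size of its difference, had opposite signs too. It had -0.97 ± 0.20 in WT and 0.52 ± 0.20 in CKO cells (difference -1.50 ± 0.28, adjusted p = 0.00444).

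Some genes named for the size of this difference fell further in WT cells. S1pr1 had a fold change of -5.48 ± 0.29 in WT, against -3.21 ± 0.29 in CKO cells (difference -2.27 ± 0.41, adjusted p = 0.00308). Il7r had -6.42 ± 0.30 in WT and -4.36 ± 0.30 in CKO cells, and Txnip -4.74 ± 0.27 against -2.67 ± 0.27. A pair of interferon-stimulated genes, Rtp4 (-5.28 ± 0.38 against -3.21 ± 0.38) and Oas1a (-5.26 ± 0.26 against -3.09 ± 0.26), and Armc3 (-6.97 ± 0.40 against -4.59 ± 0.40) showed the same. Tcf7, Lef1 and Ccr7 of the naive list were not called in this test, where the difference was -0.04 ± 0.34 for Tcf7 (adjusted p = 0.975), -0.78 ± 0.27 for Lef1 (adjusted p = 0.137) and 0.24 ± 0.32 for Ccr7 (adjusted p = 0.777). The difference for Il2 was -0.79 ± 0.45 (adjusted p = 0.421) and for Tnfrsf9 0.41 ± 0.36 (adjusted p = 0.648), neither called, while Il2ra rose by 1.10 ± 0.23 more in WT cells (adjusted p = 0.00816). For Myc the difference was 0.05 ± 0.21, adjusted p = 0.941.

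**Figure D5:**
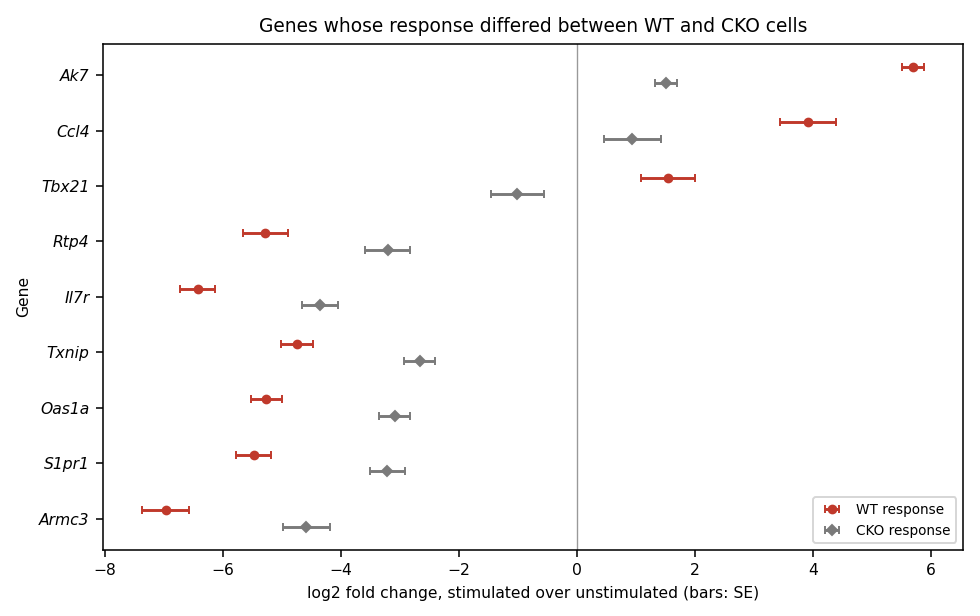
Log2 fold change of stimulated over unstimulated cells (x axis, bars are SE) in WT cells (red circles) and CKO cells (grey diamonds) for 9 named genes whose response differed, 4 arrays per group. WT lies to the right of CKO for Ak7, Ccl4 and Tbx21 and to the left for Rtp4, Il7r, Txnip, Oas1a, S1pr1 and Armc3, and only Tbx21 has responses of opposite sign.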

How the data were processed

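RNA from 24 samples was hybridised to 1-colour Agilent mouse arrays with Cy3 label, per the labels. The deposited scanner files hold spot intensity. Per the file headers, the authors' Feature Extraction software (version 9.5, also in the submitters' processing notes) subtracted background, removed spatial trends and replaced very low values by surrogates, with no normalization between arrays. The authors' deposited value table holds linear intensity with the same median, 13.5, in all 24 columns, as quantile normalization gives. How it was made is not given in the sources used here. It served as an alternative. Setting all columns to the same median assumes that the groups do not differ as a whole.

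Outlier and control spots were left out. The log2 of the processed signal, minus each array's 75th percentile of it, was averaged over the spots of a probe. A probe was kept if 3 or more arrays of any of the 6 groups had it well above background (25198 of 41174), and the brightest stood for each of 16489 genes. Probes were named through RefSeq by accession (22951), symbol (6659) or synonym (3109), and 8455 kept the name in the file. limma 3.58.1 (R 4.3.3) fitted all 24 arrays in 6 groups, and p-values were adjusted by Benjamini-Hochberg over all genes. The code was tested on simulated data.

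Named genes were a fixed set, the largest rises and falls measured on 3 or more arrays of both groups without overlap, genes above background in 1 group only, the largest called members of each of the 32 lists with members going the other way, and the genes with the largest WT minus CKO differences. Further list members are given as examples chosen after their values were seen. The members and lists were chosen with earlier results of these data known. Some genes are not reported here. Arrays give no read depth, and their number, 4 per group, limits the precision. Alternatives covered normalization, background, filters, probe summary, samples fitted, slide, age, replicate number, array weights and each array left out.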

Additional observations from a re-analysis of the deposited data

Results flagged for a closer look

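Among 410 groups of 4 arrays of the named genes, the gap of an extreme array to its nearest neighbour was divided by the group's range. In 25 groups (6.10%) this ratio exceeded Dixon's critical value for 4 values for 1 array, where chance gives about 1 in 20. Unstimulated replicate 4 was that array for 8 genes: at log2 signals of 8.39 for Nr4a1, 3.41 for Dnah8, 4.35 for Ddx58, 1.93 for Slc16a1 and -6.77 for Ccl1 it was higher than the other unstimulated arrays, and at -1.68 for Tfrc, -3.97 for Il15ra and -1.08 for Gar1 it was lower. Unstimulated replicate 1 was lower for Gzma (-0.61), Cct3 (1.13) and Psmb10 (6.63), replicate 2 was higher for Ccnb2 (0.61), and replicate 3 was lower for Socs2 (-4.72).

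Stimulated replicate 1 was lower for Cd4 (-1.25), Ikbke (-1.52), Nfkb1 (3.29) and Ccr8 (-5.83) and higher for Rpl4 (6.03). Stimulated replicate 2 was higher for Ccl5 (2.33), Cd2 (3.52) and Hba-a1 (-2.90) and lower for Bcl2 (2.06). Stimulated replicate 3 was lower for Tnfaip3 (1.58) and Cmpk2 (-6.57), and replicate 4 was higher for Itga4 (1.03). The values of Ccl1, Cmpk2 and Hba-a1, and that of Ccr8, lie at or near background.

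The response differed between WT and CKO cells for 40 of the 209 named genes, against 3.45% of all genes. Of these 12 had been named for the size of that difference and are listed, so the count is raised by the choice. Among the 197 others 28 were called. Many of those were chosen for a large WT fold change, which is part of the difference tested. That count is therefore not free of the choice either. The WT response was more positive for Ak7 (4.18), Ccl4 (2.98) and Tbx21 (2.55). It was more negative for Armc3 (-2.38), Lrrc75b (-2.31), Ampd1 (-2.30), S1pr1 (-2.27), Oas1a (-2.17), Cmpk2 (-2.14), Txnip (-2.08), Il7r (-2.07) and Rtp4 (-2.07). Adjusted p for Tbx21 was 0.0277, and its stimulated and unstimulated WT groups overlapped. The differences for Lrrc75b, Ampd1 and Cmpk2 rest in part on values that were not well above background in WT stimulated cells.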

How the results depend on the processing

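Depth of signal limits the dim genes: 1308 of 16489 were well above background on no array of at least 1 of the 2 groups, and their fitted values depend on the treatment of low signals. Called genes numbered 8329 to 10841 under the 15 other settings of normalization, background, filter, fit and covariates, against 10210, and 6571 where a 2-fold difference was also required. Leaving out each array in turn gave 9708 to 10060 called genes, with 5025 to 5220 higher and 4679 to 4950 lower. The count of genes whose response differed between WT and CKO cells was less stable. It was 569 as reported, 309 with no filter on dim probes, 871 with a signal floor and 2569 with array weights, and 410 to 772 when each array was left out. The cause was not tested. The median of the signalling feedback list, 0.19, reversed to -0.0593 with the 75th percentile over shared probes and to -0.11 with the 5000 brightest probes. Max, 0.31 as reported, was -0.0704 after quantile normalization, -0.00986 after normexp correction and -0.0709 in the authors' values. Of the 209 named genes, 19 lost their call with the signal floor, 12 after normexp correction and at most 6 under the other settings that gave all 209 a value. With only probes above background on all 8 arrays 159 had a value, and each kept its call or lack of one. List counts were recomputed under every setting, a choice made after seeing the data. They moved by at most 9 genes, in the ribosomal proteins with the 5000 brightest probes, and by at most 3 when an array was left out. The labels do not say that replicate numbers pair the samples. Arrays of the same number had deviations correlated at -0.16, 0.54, 0.49 and 0.35, and 3 of the 4 stimulated arrays correlated best with their own number, but replicate 1 did not, so the numbers were not treated as pairs. With a replicate block 10085 genes were called, and 3 named genes lost their call.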

Other observations

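Several members of the gene groups above have values not yet given. Tsc22d3, the glucocorticoid-induced gene GILZ listed with the genes of quiescence, had -1.22, -1.62, -1.26 and -0.67 in stimulated cells, against 4.42, 4.88, 4.80 and 5.04 in unstimulated cells (-5.98 ± 0.19). Rasgrp2, an activator of the small GTPase Rap1, fell by 4.55 on the log2 scale, and Igfbp4, a binding protein of insulin-like growth factors, by 4.90. Among the E2F factors, which control genes of DNA synthesis, E2f1 and E2f3 rose (2.45 ± 0.30 and 2.18 ± 0.12) and E2f2 fell (-2.24 ± 0.32). Uhrf1, which directs DNA methylation to newly made DNA, rose by 3.73 ± 0.23. Hif1a, a factor that induces glycolysis genes, rose by 1.42 ± 0.14.

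The survival kinase genes Pim2 and Pim1 moved in opposite directions (1.44 ± 0.15 and -1.46 ± 0.24), and Jak3, the kinase of the shared gamma chain, fell (-2.0 ± 0.19). Runx3, a factor of cytotoxic and Th1 cells, fell by -2.04 ± 0.20 and Ahr, the dioxin receptor, by -1.49 ± 0.24. Of the Treg markers Penk and Nrp1 rose (2.12 ± 0.51 and 1.26 ± 0.33). Nkg7, a granule protein of NK and cytotoxic cells, had 1.14, 2.36, 2.56 and 1.77 in stimulated and 1.11, 2.69, 1.61 and 2.54 in unstimulated cells, and these ranges overlapped, while the other measured CD8 and NK markers fell.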
